A study of Mus musculus with 8 samples.

Results

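Death receptor signaling was described through 8 genes, Fas, Tnfsf10, Tnfrsf1a, Tnfrsf1b, Cflar, Fadd, Ripk1 and Casp8, taken by symbol from the 16889 genes of the matrix of unique molecular identifier (UMI) counts. The data are single-cell RNA sequencing of CD11b+ cells that carried CCR2 or CD64, sorted from the colonic lamina propria of 8 female CD98hcΔCX3CR1 mice aged 6 to 12 weeks. All 8 mice were CD98hc flox/flox and carried Cx3cr1 CreER-YFP, so the controls held the floxed gene and the Cre as well. The 4 control mice (replicates 1 to 4) received corn oil and the 4 cKO mice (replicates 5 to 8) received tamoxifen on 5 days, and cells were taken on day 7. Tamoxifen releases the Cre in cells that express Cx3cr1, and its own effect and that of the deletion cannot be told apart in this design.

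Death receptors are members of the TNF receptor family that can start apoptosis from the cell surface. Fas and the TRAIL receptors recruit the adaptor FADD, which gathers caspase-8 into a complex where the caspase cleaves itself and becomes active. TNF receptor 1 first assembles a complex with RIPK1 that turns on NF-kB, and it leads to caspase-8 or to necroptosis when that complex fails. cFLIP, the product of Cflar, binds FADD and caspase-8 and holds the pathway in check, and monocytes are known to depend on such restraint when they leave the blood and mature in tissue.

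The members lie apart in the genome, except for the neighbors Cflar (chr1:58711508-58758884) and Casp8 (chr1:58795374-58847503), both on the plus strand (GENCODE annotation, GRCm38, the assembly that mm10 names). Fas spans chr19:34290666-34327772, Tnfsf10 chr3:27317028-27342427, Tnfrsf1a chr6:125349362-125362484 and Ripk1 chr13:34002363-34037147, all on the plus strand. Tnfrsf1b (chr4:145213463-145246870) and Fadd (chr7:144577318-144582463) lie on the minus strand. The bases before the start of the 4 genes that passed the test between conditions are shown for comparison, since these genes were higher together (RefSeq, GRCm38.p6, 5′ to 3′). Capitals mark matches on either strand to the core of the interferon-stimulated response element (ISRE; TTTC and TTTC with any 2 bases between them), or to TTCNNNGAA, the core of the STAT-binding gamma-activated site (GAS).
Fas, chr19:34290409-34290658, plus strand: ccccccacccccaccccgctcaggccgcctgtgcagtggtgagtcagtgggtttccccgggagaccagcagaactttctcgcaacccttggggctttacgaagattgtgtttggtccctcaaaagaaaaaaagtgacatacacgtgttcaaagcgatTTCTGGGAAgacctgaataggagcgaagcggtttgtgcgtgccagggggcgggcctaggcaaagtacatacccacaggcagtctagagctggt
Tnfsf10, chr3:27316827-27317027, plus strand: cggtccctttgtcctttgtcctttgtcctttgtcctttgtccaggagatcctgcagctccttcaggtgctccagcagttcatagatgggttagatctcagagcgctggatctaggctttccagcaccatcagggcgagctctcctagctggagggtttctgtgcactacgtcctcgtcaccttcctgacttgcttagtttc
Tnfrsf1b, chr4:145246871-145247120, minus strand: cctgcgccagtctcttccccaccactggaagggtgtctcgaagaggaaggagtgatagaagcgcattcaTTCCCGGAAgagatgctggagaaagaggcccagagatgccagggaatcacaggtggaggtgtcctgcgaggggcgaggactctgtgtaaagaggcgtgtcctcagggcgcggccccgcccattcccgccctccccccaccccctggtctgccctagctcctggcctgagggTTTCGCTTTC
Cflar, chr1:58711241-58711490, plus strand: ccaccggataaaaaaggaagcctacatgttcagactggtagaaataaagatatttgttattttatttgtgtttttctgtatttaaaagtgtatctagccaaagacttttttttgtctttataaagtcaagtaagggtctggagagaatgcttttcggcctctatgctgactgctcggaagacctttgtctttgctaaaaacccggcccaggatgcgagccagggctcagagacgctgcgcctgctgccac

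Motifs were searched in the 250 bases before each RefSeq start, of which the 201 that precede the GENCODE gene are shown for Tnfsf10. Tnfrsf1b held an ISRE core in the 10 bases before its start, a motif found in 2.98% of the 32851 promoters of the table. A GAS core, present in 7.02% of all promoters, was found in 4 of the 9 promoters of members, namely those of Fas, Tnfrsf1b and Tnfrsf1a and 1 of the 2 of Ripk1. An NF-kB core (GGG and TTTCC with any 2 bases between them), present in 1.41% of promoters, was in none of the 9. Neither the Tnfsf10 window nor the Cflar window held any of these letters.

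After the filters on cells, 3213 cells remained, 1863 from control and 1350 from cKO mice, and 1 mouse of each condition gave few (85 cells of control replicate 3 and 83 of cKO replicate 5). Depth in the kept cells ran from 497531 to 3762314 UMIs per mouse, and 25 barcodes were shared by 2 wells, 8 of them among the kept cells. Slc3a2, which encodes CD98hc, was measured at 337 ± 117 CPM (counts of a gene relative to all UMIs of the sum; SD, n = 4) in control and 320.3 ± 27.9 CPM (n = 4) in cKO mice. A 3′ count can include transcripts that lack the excised part, so it checks no label. Ward clustering that left out the members, their pathway and interferon genes gave 9 clusters, named from marker genes or, where the markers did not allow a name, from their 2 leading genes. Markers of lymphoid cells, dendritic cells and stromal cells led 3 of the clusters, although the sort was for monocytes and macrophages. The makeup differed between the conditions: dendritic cell-like cells were 20.2% to 27.7% of the cells of control mice and 4.75% to 9.68% of those of cKO mice, while monocyte-like cells were 2.35% to 10.7% and 9.64% to 40.5%. Of the UMIs, which the sums per mouse add up, dendritic cell-like cells held 34.2% to 46.9% in control and 7.68% to 17.1% in cKO mice. Monocyte-like cells held 1.96% to 8.18% and 12.3% to 44.6% of them.

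Summed over all cells of a mouse, 4 of the 8 members were higher in cKO mice and none was lower. These were Fas, Tnfsf10 (TRAIL), Tnfrsf1b (TNF receptor 2) and Cflar, so a receptor, a ligand, a receptor without a death domain and the inhibitor of caspase-8. Of all 11387 genes tested with edgeR's quasi-likelihood test, 2.99% were called higher and 1.48% lower (Benjamini-Hochberg adjusted p under 0.05). The median log2 fold change was 0.71 over the members and -0.03 over all genes. In such sums, a change in the share of a cell type and a change in its RNA cannot be told apart.

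Among the ligands, Tnfsf10 encodes TRAIL, which binds a death receptor on the target cell. Its level was 1.06, 0.612, 1.70 and 1.01 CPM in control replicates 1 to 4 and 4.02, 3.02, 5.23 and 2.62 CPM in cKO replicates 5 to 8. All cKO mice were above all control mice, though these levels rest on 10 UMIs in control and 26 in cKO mice. The log2 fold change was 2.02 (SE 0.49, edgeR adjusted p = 0.038). The call was lost in DESeq2 (log2 fold change 2.07, adjusted p = 0.066) and without the 2 mice of under 100 cells (2.12, edgeR adjusted p = 0.056), with folds as large as before.

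Fas, the receptor of Fas ligand, was at 14.6, 14.4, 13.6 and 18.2 CPM in the control mice and at 16.1, 38.1, 24.5 and 35.0 CPM in the cKO mice. The lowest cKO value, that of the mouse with 83 cells and 8 Fas UMIs, lay within the control range, and the other 3 were above it. The log2 fold change was 1.05 (SE 0.24, edgeR adjusted p = 0.029). It fell to 0.88 and missed the threshold (edgeR adjusted p = 0.075) when the dendritic cell-like, lymphoid-like and stromal-like cells were left out.

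Tnfrsf1b encodes TNF receptor 2, which has no death domain and signals to NF-kB. Control mice measured 53.2, 45.0, 32.3 and 61.3 CPM, and cKO mice 100.5, 83.4, 128 and 104 CPM. The groups did not overlap, and the lowest cKO mouse stood well above the highest control. With a log2 fold change of 1.19 (SE 0.20, edgeR adjusted p = 0.0082), this was the member whose call held under all 15 alternatives tried. Without the dendritic cell-like, lymphoid-like and stromal-like cells, its log2 fold change fell to 0.73 (edgeR adjusted p = 0.037).

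Tnfrsf1a encodes TNF receptor 1, the death domain receptor of TNF, and was at 143, 109, 126 and 156 CPM in control and at 111, 139, 220.0 and 141 CPM in cKO mice. The groups overlapped, with 1 high cKO mouse (replicate 7). The log2 fold change of 0.31 (SE 0.21) was not past the threshold (edgeR adjusted p = 0.45).

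Cflar, the inhibitor, was at 65.7, 63.0, 88.3 and 75.4 CPM in control mice and at 173, 88.9, 145 and 104 CPM in cKO mice. The groups did not overlap, but the lowest cKO mouse was only just above the highest control. Its log2 fold change was 0.90 (SE 0.22, edgeR adjusted p = 0.039). The count does not separate the long from the short forms of cFLIP. Leaving out the doublet calls of Scrublet (58 of the 73 in cKO mice, 24 of them in replicate 5) gave a log2 fold change of 0.82 (edgeR adjusted p = 0.058). Leaving out the dendritic cell-like, lymphoid-like and stromal-like cells gave 0.67 (edgeR adjusted p = 0.13).

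Among adaptors and the caspase, Casp8 was higher on average in cKO mice without passing the test. It measured 87.2, 65.4, 66.2 and 98.6 CPM in control and 100.5, 87.1, 124 and 112 CPM in cKO mice, with a log2 fold change of 0.51 (SE 0.18, edgeR adjusted p = 0.14). Ripk1, the kinase of the TNF receptor complex, was at 16.2 to 38.3 CPM in control and 27.8 to 34.6 CPM in cKO mice (log2 fold change 0.28, SE 0.25, edgeR adjusted p = 0.57). Fadd, the adaptor, was at 5.09 to 12.1 CPM in control and 3.22 to 10.0 CPM in cKO mice, on 109 and 37 UMIs, and its log2 fold change was -0.73 (SE 0.36, edgeR adjusted p = 0.28). In all, 3 of the 8 members (Tnfsf10, Tnfrsf1b and Cflar) had every cKO mouse above every control mouse, as did 4% of all genes tested.

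**Figure D1:**
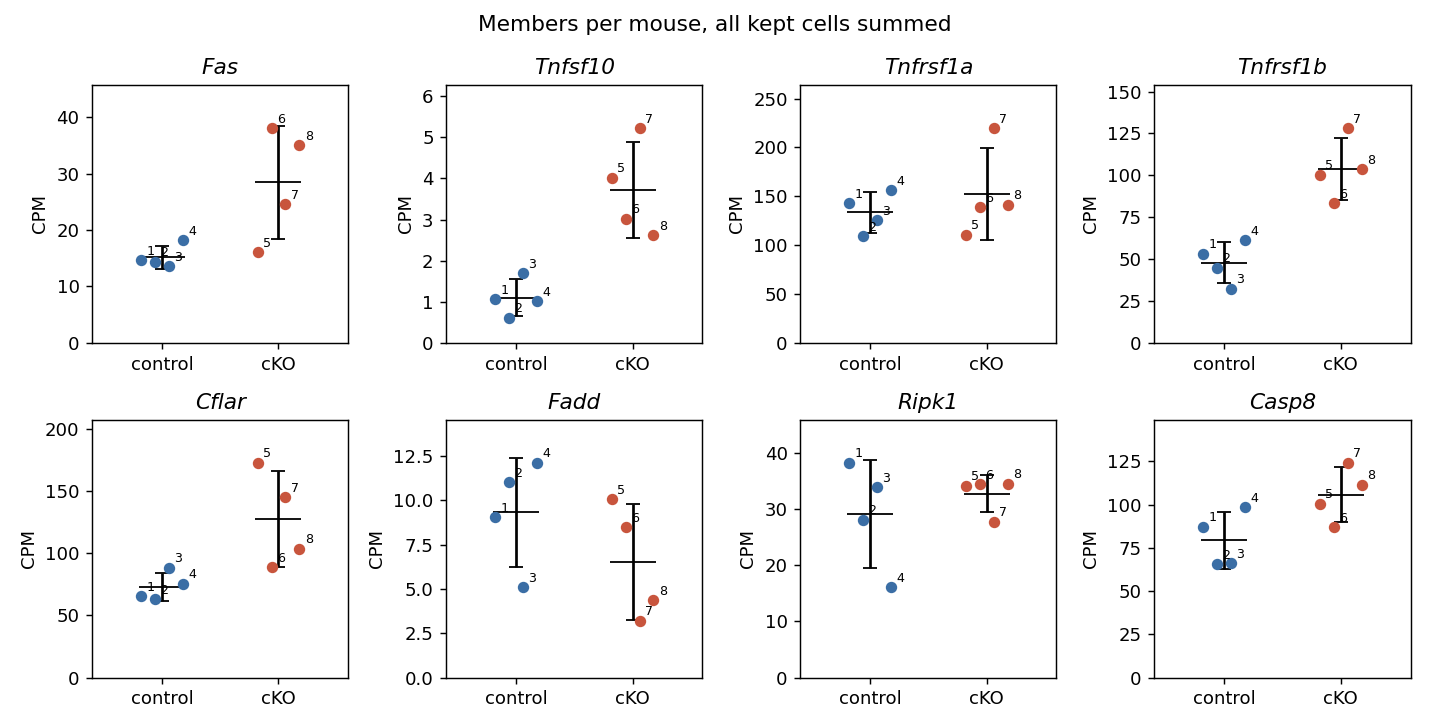
CPM of each member in all kept cells of a mouse, with control mice in blue, cKO mice in red and the replicate number beside each point; the tick and bar are the mean and SD of 4 mice. Tnfsf10, Tnfrsf1b and Cflar have all red points above all blue points, whereas the red point of replicate 5 lies among the blue points for Fas.

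The plot of CPM by mouse shows no single cKO mouse that is highest for every member: replicate 7 is highest for Tnfsf10, Tnfrsf1a, Tnfrsf1b and Casp8, replicate 6 for Fas, replicate 5 for Cflar and Fadd and replicate 8 for Ripk1. The calls of Fas, Tnfsf10 and Cflar were lost on leaving out any of several mice, while the log2 fold changes moved little. Without control replicate 2, these were 1.003, 1.80 and 0.83, and the edgeR adjusted p was 0.11 for Fas, 0.14 for Tnfsf10 and 0.14 for Cflar. Without control replicate 1 it was 0.093, 0.10 and 0.11, and without cKO replicate 7 it was 0.051, 0.17 and 0.12 in the same order. Fas was also lost without cKO replicate 6 (0.079) or 8 (0.087), Cflar without cKO replicate 5 (0.067) or 8 (0.054), and Tnfsf10 without control replicate 4 (0.054) or without cKO replicate 5 (0.0503), 6 (0.059) or 8 (0.054), all adjusted p by edgeR. Over the fits without 1 mouse, the log2 fold change was 0.91 to 1.18 for Fas, 1.68 to 2.21 for Tnfsf10 and 0.77 to 1.05 for Cflar.

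The levels across clusters are given for control mice with at least 20 cells in the cluster, as a description. Each member is compared with itself only, because counts from the 3′ end of different genes are not on 1 scale. Fas was highest in monocyte-like cells, at 53.5 ± 22.6 CPM (SD, n = 3), followed by lymphoid-like cells at 35.2 ± 4.85 CPM (n = 3) and the Saa3/Ccl5 cluster at 31.3 ± 5.04 CPM (n = 2). It was lower in macrophage-like cells, at 9.80 ± 4.83 CPM (n = 3), and in dendritic cell-like cells, at 5.13 ± 3.57 CPM (n = 4). No Fas UMI was found in the control cells of the low-depth macrophage-like cluster, whose cells held a median of 1167 UMIs. Each cluster overlapped with the next in this order, so the steps between neighbors do not exceed the spread of the mice.

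Tnfsf10 was found mainly in lymphoid-like cells, at 14.9 ± 6.95 CPM (n = 3), and their range did not overlap with that of the next cluster, monocyte-like cells at 4.27 ± 3.93 CPM (n = 3). Of the 10 control UMIs, 6 came from lymphoid-like cells, and of the 26 cKO UMIs 11 did, which is 60.0% and 42.3%. These cells were led by Jchain, Mzb1, Ly6d, Gzmb and Cd79a, genes of plasma cells, B cells and cytotoxic cells. Among cells with at least 1000 UMIs, thinned to 1000, 2.20% of lymphoid-like and 0.0504% of macrophage-like cells would have a Tnfsf10 UMI. Without thinning and over all kept cells of the cluster, these shares were 8.20% (median 3565 UMIs) and 0.239% (median 5449 UMIs).

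Both TNF receptors had their highest control mean in monocyte-like cells among the clusters with at least 2 control mice. Tnfrsf1a was at 276 ± 59.0 CPM (n = 3) there, at 228 ± 11.5 CPM (n = 2) in the Saa3/Ccl5 cluster and at 187 ± 40.8 CPM (n = 3) in the Ccr2/Thbd cluster, whose range lay above that of macrophage-like cells at 136 ± 12.8 CPM (n = 3). It was lowest in lymphoid-like cells, at 35.2 ± 4.85 CPM (n = 3), and the 1 control mouse with at least 20 stromal-like cells had 281 CPM. Tnfrsf1b was at 132 ± 44.1 CPM (n = 3) in monocyte-like cells, at 67.3 ± 3.06 CPM (n = 3) in macrophage-like cells and at 15.5 ± 7.83 CPM (n = 4) in dendritic cell-like cells. In cKO mice its means in monocyte-like cells (155 ± 4.38 CPM, n = 3) and in the Cebpb/Dusp2 cluster (156 ± 58.8 CPM, n = 4) differed by less than the spread of the mice.

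Cflar had another order and was highest in the Cebpb/Dusp2 cluster, at 126 ± 44.5 CPM (n = 4), and lowest in dendritic cell-like cells, at 39.4 ± 3.10 CPM (n = 4). This cluster had Cebpb, Dusp2, Jund and Cxcr4 among its leading genes, and the median depth of its cells relative to their own mouse was 0.46. Casp8 was at 139 ± 70.8 CPM (n = 3) in low-depth macrophage-like cells, 123 ± 26.8 CPM (n = 3) in monocyte-like cells and 77.2 ± 3.61 CPM (n = 3) in macrophage-like cells. Fadd and Ripk1 had means of 5.55 to 12.2 CPM and 14.3 to 36.2 CPM over the 8 clusters that had at least 2 control mice, and all neighbors in their orders overlapped. In stromal-like cells, where 1 control mouse had at least 20 cells, pooled control cells gave 240.0 CPM of Tnfrsf1a and 45.0 CPM of Fas.

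**Figure D2:**
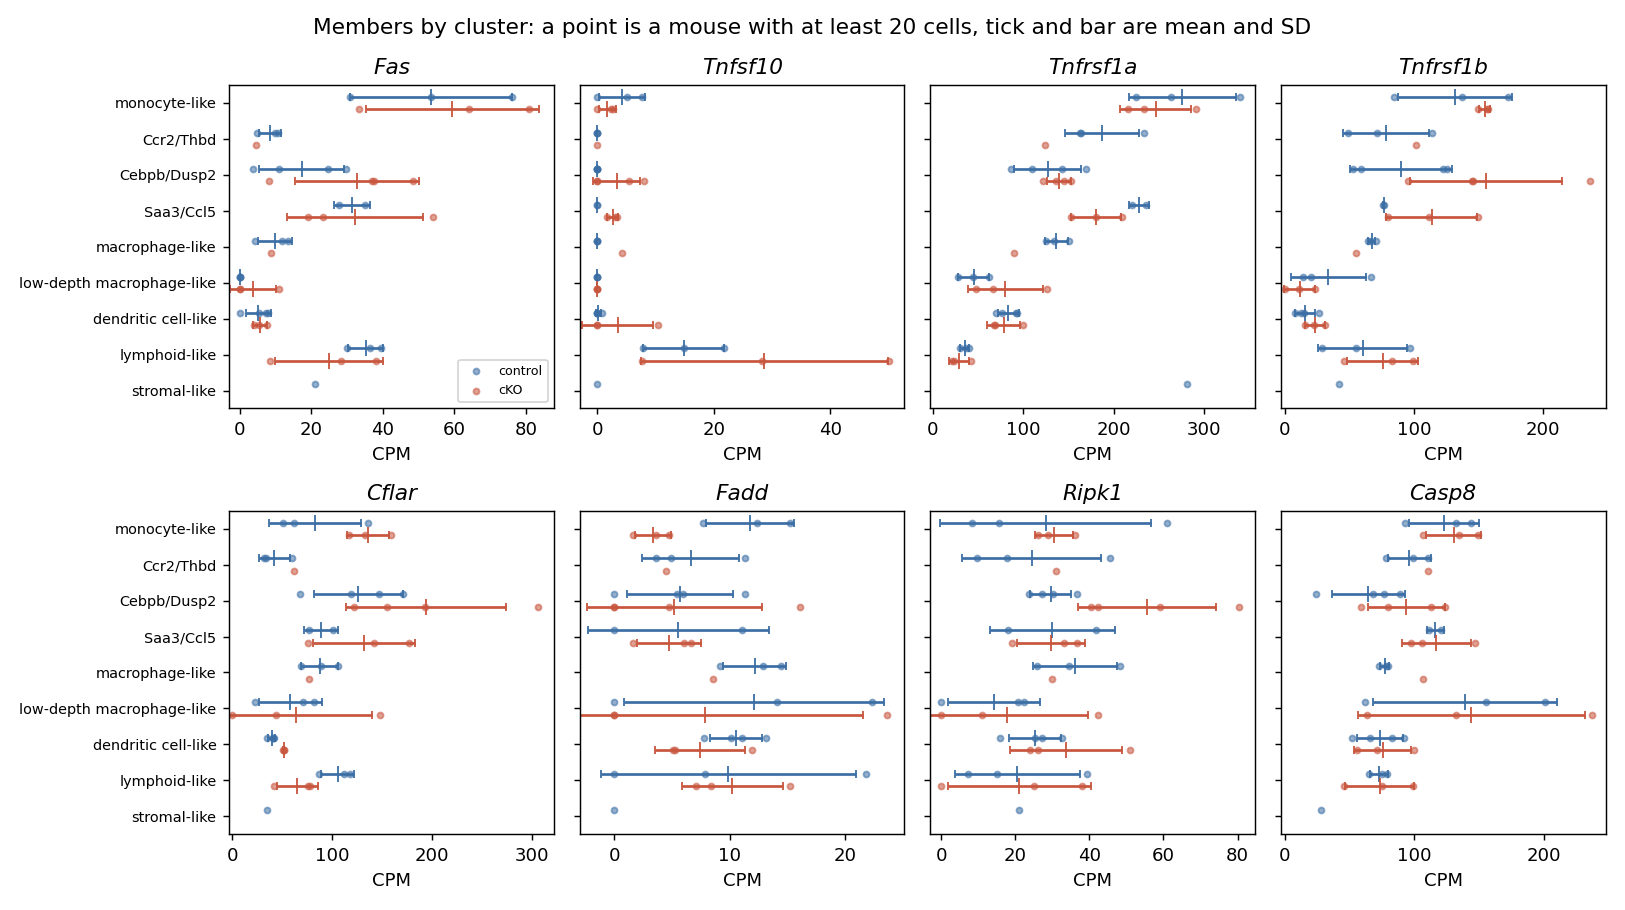
CPM of each member by cluster, with control mice in blue and cKO mice in red; a point is a mouse with at least 20 cells in the cluster, and the tick and bar are the mean and SD where there are 2 or more mice (bars are clipped near 0). Of the clusters with at least 2 control mice, the control mean of Fas, Tnfrsf1a and Tnfrsf1b is highest in monocyte-like cells, that of Tnfsf10 in lymphoid-like cells and that of Cflar in the Cebpb/Dusp2 cluster.

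As the plot of levels by cluster shows, the clusters rich in Fas and Tnfrsf1b include the monocyte-like cells that were more frequent in cKO mice, and the dendritic cell-like cells that were less frequent are low in both. Monocyte-like cells carried 19.5% of the Fas UMIs of control and 53.8% of those of cKO mice. For Tnfrsf1b these shares were 14.8% and 45.7%, and for Cflar 7.13% and 37.9%. To describe how far makeup alone would move a member, the cluster shares of UMIs of each mouse were multiplied by the pooled control level of each cluster.

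For Fas, makeup at control levels gave a log2 ratio of cKO to control of 0.88, beside 0.90 for the measured means. For Tnfrsf1b the makeup gave 0.69 beside a measured 1.12, and for Tnfsf10 1.15 beside 1.77. The makeup value of Tnfsf10 rests on 10 control UMIs in all, 6 of them in lymphoid-like cells. For Cflar the makeup gave 0.27 beside a measured 0.80. Tnfrsf1a was the member with more from makeup (0.45) than was measured (0.19), and Fadd had -0.01 from makeup and -0.51 as measured. These ratios are descriptions without a test, and they depend on the clusters built here.

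**Figure D3:**
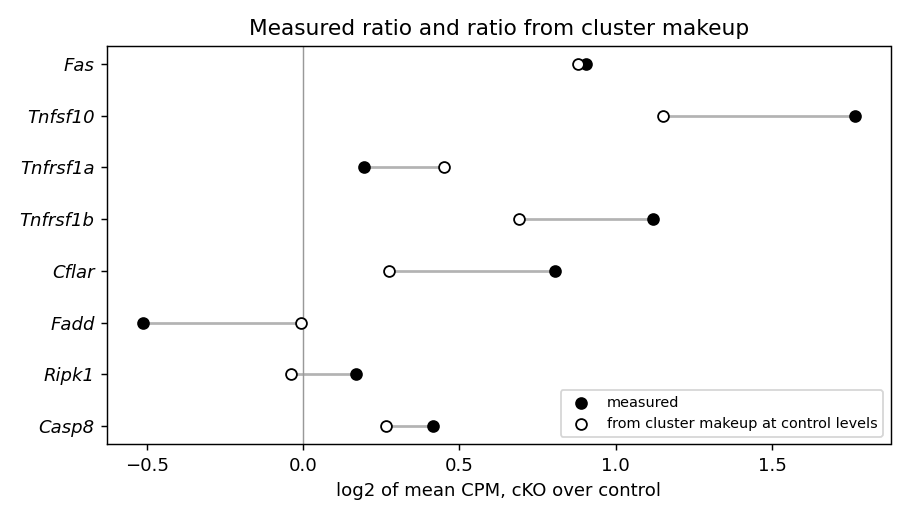
Log2 ratio of mean CPM, cKO over control, for each member as measured (filled) and as given by the cluster makeup of each mouse at the pooled control levels (open). The 2 points nearly coincide for Fas, while the measured point lies to the right for Cflar, Tnfrsf1b and Tnfsf10.

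Within clusters, no member passed the threshold in any of 48 tests (8 members in 6 clusters with at least 2 sums of 20 or more cells per condition, edgeR over 10537 genes). Some of these pairs hold 3 UMIs or fewer in each condition and could show nothing. At an unadjusted p under 0.05 there were 5 pairs, and the edgeR likelihood ratio test, DESeq2 and limma-voom called none either. The same test called 0.645% of genes in monocyte-like cells, 0.598% in the Cebpb/Dusp2 cluster, 0.408% in the Saa3/Ccl5 cluster, 0.123% in low-depth macrophage-like cells, 0.38% in dendritic cell-like cells and 0.0949% in lymphoid-like cells, in either direction. Macrophage-like and Ccr2/Thbd cells had too few cKO cells for these sums. With at least 10 cells per sum, macrophage-like cells had 3 mice of each condition, and the log2 fold change of Tnfrsf1b was -0.70 (SE 0.41, edgeR adjusted p = 0.65) and that of Cflar was -0.58 (SE 0.39, edgeR adjusted p = 0.69). That of Casp8 was 0.37 (SE 0.32, edgeR adjusted p = 0.78). In Ccr2/Thbd cells, Tnfrsf1b had 0.26 (SE 0.36, edgeR adjusted p = 0.89) and Cflar 0.69 (SE 0.42, edgeR adjusted p = 0.66). Tnfrsf1a had -0.66 there (SE 0.29, edgeR adjusted p = 0.48).

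The smallest unadjusted p was that of Tnfrsf1b in the Cebpb/Dusp2 cluster (0.0072, edgeR adjusted p = 0.34). There, control mice measured 52.8, 122, 59.5 and 125 CPM and cKO mice 145, 95.8, 237 and 146 CPM. The groups overlapped through cKO replicate 6, and the log2 fold change was 0.91 (SE 0.32). In monocyte-like cells the same receptor was at 137, 85.0 and 173 CPM in control replicates 1, 2 and 4 and at 150, 157 and 158 CPM in cKO replicates 6, 7 and 8, for a log2 fold change of 0.32 (SE 0.31, edgeR adjusted p = 0.85).

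The log2 fold changes of Cflar were 0.79 (SE 0.35, edgeR adjusted p = 0.50) in monocyte-like cells, 0.74 (SE 0.31, edgeR adjusted p = 0.52) in the Cebpb/Dusp2 cluster and 0.59 (SE 0.36, edgeR adjusted p = 0.81) in the Saa3/Ccl5 cluster. In monocyte-like cells, control mice measured 50.8, 61.8 and 136 CPM and cKO mice 117, 159 and 133 CPM, so that control replicate 4 lay among the cKO mice. Dendritic cell-like cells held 39.4 ± 3.10 CPM (SD, n = 4) in control and 51.7 ± 0.647 CPM (n = 3) in cKO mice, without overlap, at a log2 fold change of 0.29 (SE 0.37, edgeR adjusted p = 0.95). Lymphoid-like cells had the opposite sign, with 106 ± 16.5 CPM (n = 3) in control and 65.3 ± 20.4 CPM (n = 3) in cKO mice and a log2 fold change of -0.60 (SE 0.46, edgeR adjusted p = 0.85).

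Fas showed little difference in monocyte-like cells, where control mice measured 76.1, 30.9 and 53.5 CPM and cKO mice 80.9, 33.4 and 64.1 CPM. The ranges nearly coincided, and the log2 fold change was 0.16 (SE 0.41, edgeR adjusted p = 0.97). In the Cebpb/Dusp2 cluster it was 1.27 (SE 0.58, edgeR adjusted p = 0.57), on 10 UMIs in control and 28 in cKO mice. Tnfsf10 in lymphoid-like cells had a log2 fold change of 0.94 (SE 0.83, edgeR adjusted p = 0.85), and in the other clusters tested it had at most 4 UMIs per condition.

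Fadd in monocyte-like cells was at 15.2, 7.73 and 12.3 CPM in control and 4.76, 3.61 and 1.64 CPM in cKO mice, on 7 UMIs in each condition. The groups did not overlap, and the log2 fold change was -1.67 (SE 0.82, edgeR adjusted p = 0.56). Ripk1 in the Cebpb/Dusp2 cluster was at 23.8 to 36.7 CPM in control and 40.5 to 80.5 CPM in cKO mice, also without overlap (log2 fold change 0.90, SE 0.49, edgeR adjusted p = 0.67). Over the 48 pairs, 7 had groups that did not overlap: 1 of 8 members in monocyte-like cells (16.1% of all genes), 1 in the Cebpb/Dusp2 cluster (4.66%), 3 in the Saa3/Ccl5 cluster (24.7%), 1 in dendritic cell-like cells (8.78%), 1 in lymphoid-like cells (9.45%) and none in low-depth macrophage-like cells (6.46%). With 8 members, these counts are near the background shares in most clusters.

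**Figure D4:**
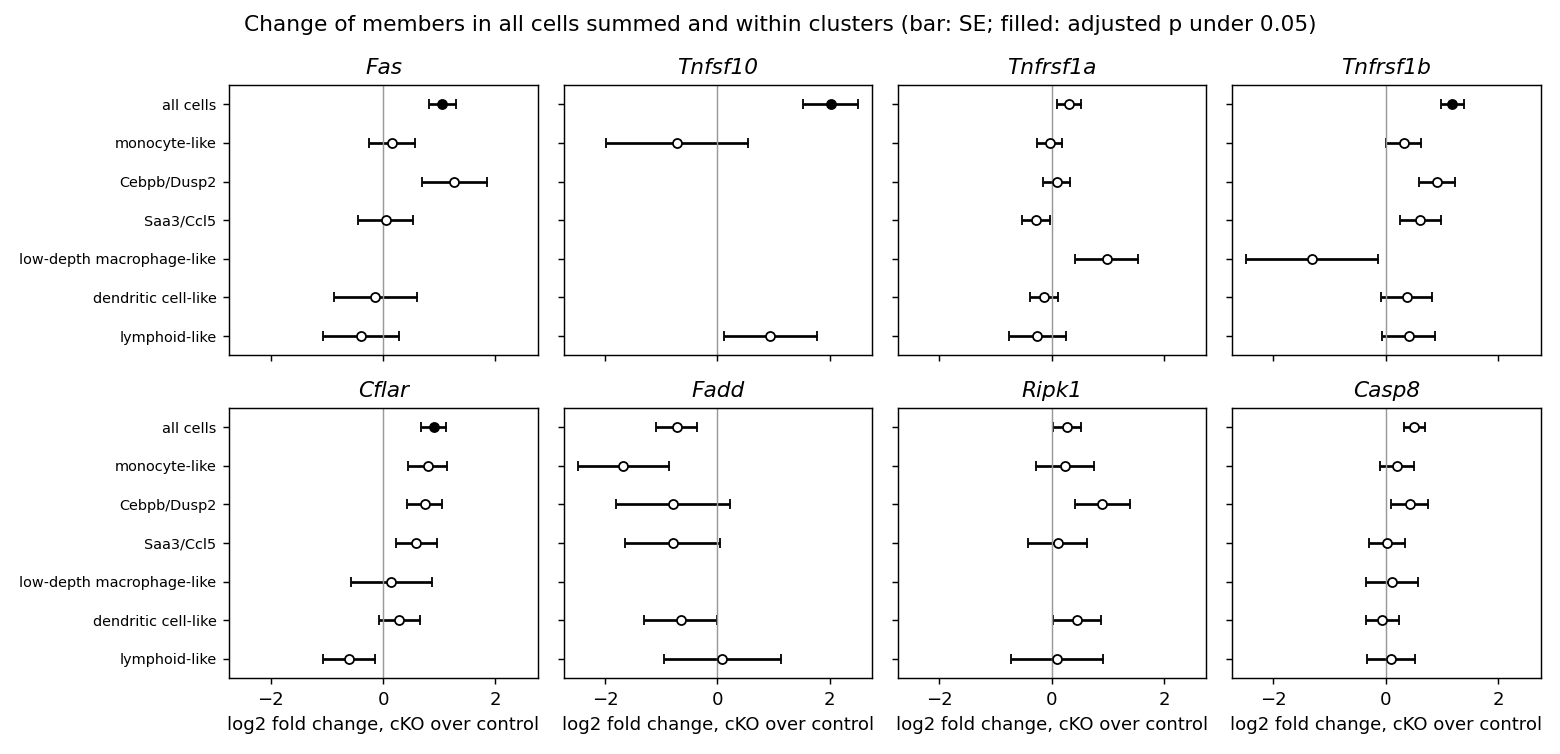
Log2 fold change of each member, cKO over control, in all cells summed and within the 6 clusters tested; bars are SE, filled points have an edgeR adjusted p under 0.05, and pairs with 3 UMIs or fewer in each condition are left out. Filled points occur in all cells summed for Fas, Tnfsf10, Tnfrsf1b and Cflar, and in no cluster.

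The plot of fold changes also shows bars that are wider within clusters than in all cells summed. Whether the cKO effect differed between the clusters was tested directly, and no member passed (edgeR F test, adjusted p = 1 for each, unadjusted p from 0.21 for Cflar to 0.92 for Casp8), where 0.0759% of genes did. This test used the joint fit without a term for the mouse, so it left aside that the clusters came from the same mice. The sign difference of Cflar between lymphoid-like and monocyte-like cells is not shown to be a difference.

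Detection was compared at an equal depth of 1000 UMIs, as the share of cells expected to hold a UMI of the member. Cells below the depth used were left out, whereas shares without thinning are over all kept cells. There were 8 two-sided exact permutation tests with unadjusted p (the smallest possible is 0.0286). The shares are over all clusters of a mouse, so a change in makeup and a change within cells cannot be told apart. With both conditions together, Tnfrsf1b was expected in 14.1% of monocyte-like and 2.15% of dendritic cell-like cells. For Tnfrsf1b the share was 5.72% ± 1.596 (SD, n = 4) in control and 10.6% ± 1.57 (n = 4) in cKO mice (exact permutation p = 0.0286). Tnfsf10 was at 0.114% ± 0.0313 (n = 4) and 0.524% ± 0.330 (n = 4) (exact permutation p = 0.0286), on at most 10 UMIs in control and 26 in cKO mice. Cflar was at 7.91% ± 1.32 and 12.6% ± 3.93, which did not pass 0.05 (exact permutation p = 0.0571, n = 4 per group). Fas was at 1.64% ± 0.289 and 2.64% ± 1.02 (exact permutation p = 0.171, n = 4 per group), and Casp8 at 7.77% ± 1.49 and 10.1% ± 1.33 (exact permutation p = 0.0857, n = 4 per group). Without thinning, the shares of Fas were 7.56% and 11.05% (exact permutation p = 0.0286, n = 4 per group), and those of Tnfrsf1b 21.6% and 34.5%. Those of Tnfsf10 were then 0.668% and 1.80% and did not pass (exact permutation p = 0.0857, n = 4 per group). At 2000 UMIs, Fas was at 3.40% and 5.41% and did not pass (exact permutation p = 0.0857, n = 4 per group). Tnfsf10 and Tnfrsf1b did pass at that depth (exact permutation p = 0.0286 each).

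Cells set aside for a mitochondrial share above 5% (381 cells with 590032 UMIs) were compared with the kept cells of the same mouse, by two-sided exact sign flips over 8 mice with unadjusted p for each of 8 members. Ripk1 was higher in the excluded cells of 7 of 8 mice, with 69.5 CPM pooled against 30.0 CPM and a mean difference in log2(CPM + 1) of 1.24 ± 0.83 (SD; exact sign-flip p = 0.0156). Cflar was higher in 6 of 8 mice, with 164 against 89.1 CPM and a difference of 0.88 ± 0.83 (exact p = 0.0312). Tnfrsf1b was higher in 7 of 8 mice, with 137 against 73.8 CPM and a difference of 0.87 ± 0.92 (exact p = 0.0469). Casp8 was at 64.4 CPM in excluded and 93.2 CPM in kept cells, with a difference of -0.31 ± 1.13 (exact p = 0.453), and Fas rested on 12 UMIs in the excluded cells. The cell types among the excluded cells were not determined, and in cells above 10% mitochondrial share (128 cells) none of the differences of Ripk1, Cflar and Tnfrsf1b passed. Fas, Tnfsf10 and Casp8 were lower in those cells, at exact sign-flip p of 0.031, 0.0078 and 0.023. With 143810 UMIs over 8 mice, those cells held 2 UMIs of Fas, 0 of Tnfsf10 and 4 of Casp8, too few to compare their levels.

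Other genes of the pathway were taken as a list of 61, of which 56 were tested in all cells summed. Of these, 6 were higher in cKO mice and 0 were lower, beside the 2.99% and 1.48% of all genes given above, and the median log2 fold change of the list was 0.16. No ligand other than Tnfsf10 and no receptor other than the members passed: 0 of 5 death ligands, with Tnf at a log2 fold change of 0.41 (SE 0.27, edgeR adjusted p = 0.42), and 0 of 8 receptors and decoys. Fasl, Lta, Tnfrsf10b (the mouse TRAIL receptor) and Tnfrsf26 were under the filter on low counts, so the ligand of Fas and the receptor of TRAIL were not tested.

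The necroptosis genes Zbp1 and Mlkl had larger log2 fold changes than the other 54 genes of the list that were tested. Zbp1, a sensor of Z-form nucleic acids that engages RIPK3, was at 50.5, 34.9, 62.8 and 76.1 CPM in control and at 157, 171, 284 and 203 CPM in cKO mice. The groups did not overlap (log2 fold change 1.995, SE 0.27, edgeR adjusted p = 0.0023). Mlkl, the executor of necroptosis, was at 6.11, 2.75, 5.09 and 6.06 CPM in control and at 4.02, 16.9, 25.3 and 17.1 CPM in cKO mice, with replicate 5 among the controls (log2 fold change 1.93, SE 0.39, edgeR adjusted p = 0.020). Ripk3, the kinase between them, did not pass (log2 fold change 0.55, SE 0.28, edgeR adjusted p = 0.30). Zbp1 was also called within the Cebpb/Dusp2 cluster (log2 fold change 1.81, SE 0.37, edgeR adjusted p = 0.0033) and in dendritic cell-like cells (1.78, SE 0.33, edgeR adjusted p = 0.0012). Both Zbp1 and Mlkl are known as interferon-inducible genes.

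Of 23 adaptors and other parts of the receptor complex, 2 were higher. Tnip1, which binds the NF-kB inhibitor A20, rose from 37.5 ± 7.49 to 70.2 ± 27.96 CPM (SD, n = 4 each; log2 fold change 1.02, SE 0.26, edgeR adjusted p = 0.048), and Daxx, a protein first described as a partner of Fas, from 34.0 ± 6.48 to 55.6 ± 8.62 CPM (n = 4 each; log2 fold change 0.83, SE 0.19, edgeR adjusted p = 0.034). Tnfaip3, which encodes A20, had a log2 fold change of 1.06 (SE 0.28, edgeR adjusted p = 0.055), and Tab1, a subunit of the TAK1 kinase complex, -1.08 (SE 0.29, edgeR adjusted p = 0.054). Traf1, an NF-kB target that binds TNF receptor 2, was called within monocyte-like cells (log2 fold change 1.44, SE 0.36, edgeR adjusted p = 0.040) and had 0.81 (SE 0.23, edgeR adjusted p = 0.072) in all cells summed.

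Of 8 other caspases tested, Casp4, the sensor of cytosolic lipopolysaccharide, was higher, with 57.1 ± 11.6 CPM in control and 97.0 ± 24.8 CPM in cKO mice (SD, n = 4 each; log2 fold change 0.88, SE 0.23, edgeR adjusted p = 0.047). Of 9 caspase substrates and inhibitors, Naip2, an inflammasome receptor with inhibitor-of-apoptosis domains, was higher, with 13.1 ± 3.91 and 28.8 ± 9.84 CPM (n = 4 each; log2 fold change 1.21, SE 0.28, edgeR adjusted p = 0.034). Within clusters, 54 genes of the list were tested. There was 1 call each in monocyte-like, Cebpb/Dusp2 and dendritic cell-like cells and 0 in the other clusters tested. The shares of all genes called in each cluster are those given above. These calls were of Traf1 and Zbp1, so Mlkl, Tnip1, Daxx, Casp4 and Naip2 were called in no cluster. The alternative fits were run for the members only, not for this list. 

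In the plot of the pathway list, the points of all ligands and receptors are open. For each member called in all cells summed, the genes with the most similar levels over the 47 sums per mouse and cluster were looked up among 4714 genes, as a description over sums that share mice and depth. Tnfsf10 was most like the lymphoid genes Ly6d (Pearson r = 0.81), Lck (0.80) and Icos (0.78). Fas was most like Stx11 (r = 0.72), Ankrd17 (0.70) and Il17ra (0.70). Tnfrsf1b was nearest to Mapk6 (r = 0.77), H3f3b (0.76) and Gbp3 (0.73), and Cflar to the transcriptional repressor Tgif1 (r = 0.80), Nfkbiz (0.75), which encodes an atypical I-kB protein, and the autophagy receptor gene Sqstm1 (0.75).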

How the data were processed

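Colonic CD11b+ CCR2+ or CD64+ cells of 8 mice were captured in a well per mouse on 1 cartridge on 1 day. The authors aligned reads to mm10 (Cell Ranger, STAR 2.5.3a, per the submitters' processing notes) with EYFP added and deposited raw UMI counts per gene and cell, without normalization. All cell columns were joined to a mouse through the well in their name. Cells were kept with log10 UMIs of at least 2.8, log10 genes of at least 2.6, at most 5% mitochondrial UMIs and no hemoglobin UMI. Scrublet (scanpy 1.11.5) calls were kept.

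Ward clustering into 9 clusters used scran 1.30.0 factors, 8 components and a gene set without 293 of 11947 genes (members, pathway, interferon genes and genes called by the study). The clusters are rebuilt, so they can differ from the study's. UMIs were added up for each mouse (and for each cluster of a mouse with at least 20 cells) and tested with edgeR 4.0.16 (TMM, glmQLFit, glmQLFTest; CPM above 1 in at least 3 sums, at least 20 cells with a UMI) under R 4.3.3, with Benjamini-Hochberg adjustment over all genes tested. DESeq2 1.42.0 and limma 3.58.1 were alternatives. The fit of all cells and a fit of each cluster alone were tried on simulated counts. The joint fit of the clusters, used for the results within and between clusters, was not simulated. Exact tests used scipy 1.17.1, and promoter and positions tables were RefSeq and GENCODE on GRCm38. All 8 members matched the promoter table by symbol.

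Named genes were the members, Slc3a2, the pathway genes called in all cells summed, and the 3 genes most alike (mean of at least 20 CPM, prior of 2 CPM); others, such as Tnf, Traf1, Tnfaip3, Tab1 and Ripk3, and the promoter motifs were chosen after values were seen. The members and lists were chosen with earlier results of these data known. Replicates are separate mice. Counts below a few UMIs limit precision, and no interval beyond the SD and SE is given. Casp14 had no row in the table used here. Some items that were tested and counted are not reported here.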

Additional observations from a re-analysis of the deposited data

Results flagged for a closer look

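Over 39 groups of 4 mice, 2 held a value far from the others of its group by Dixon's 95% criterion, where chance gives about 1 in 20 groups. Ripk1 in all cells of cKO replicate 7 was at 27.8 CPM, below the 34.2 to 34.6 CPM of the other cKO mice. Tnfsf10 in dendritic cell-like cells of control replicate 1 was at 0.778 CPM, which is a single UMI, while the other control mice had none.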

How the results depend on the processing

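The number of members called in all cells summed was 4, and it was 3 or 4 with DESeq2, edgeR's likelihood ratio fit, all genes kept regardless of count, doublet calls left out and a mitochondrial limit of 10%. It was 2 without the 2 smallest libraries and 1 without dendritic cell-like, lymphoid-like and stromal-like cells, where Tnfsf10 was under the filter. Leaving out each mouse in turn gave 1 to 4 members. Tnfrsf1b was called in all 15 alternatives, Fas in 9, Cflar in 7 and Tnfsf10 in 5 of 14, and their log2 fold changes ranged from 0.73 to 1.30, 0.88 to 1.18, 0.67 to 1.05 and 1.68 to 2.21. Within clusters, no member was called under any of 20 alternatives. The lowest edgeR adjusted p was 0.079, for Cflar with 7 clusters, in the cluster named after Ccr2/Thbd. Clusters of another clustering or cut were named by their overlap with the main clusters, so this cluster can hold other cells. With few UMIs per mouse and cluster, small differences could not be detected. Control and cKO mice were compared without pairing, because the litter of each mouse is not given.

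For the mitochondrial limit of 10%, the cells were clustered anew. Those clusters, like those with 12 clusters or clustering on all genes, were named by overlap with the main ones and can hold other cells. Log2 fold changes within clusters that were not called changed sign as follows. With a mitochondrial limit of 10%, they were -0.28 for Ripk1 and -0.054 for Casp8 in the Cebpb/Dusp2 cluster, -0.27 for Fas, 3.09 for Fadd, -0.21 for Ripk1 and -0.13 for Casp8 in the Saa3/Ccl5 cluster, -0.19 for Cflar in low-depth macrophage-like cells, 0.14 for Fas in dendritic cell-like cells, and -0.054 for Ripk1 and -0.048 for Casp8 in lymphoid-like cells. With limma-voom, they were -0.086 for Fas and 0.14 for Fadd in the Saa3/Ccl5 cluster, -0.35 for Cflar in low-depth macrophage-like cells, 0.27 for Fas in dendritic cell-like cells and -0.28 for Ripk1 in lymphoid-like cells. Tnfrsf1a gave 0.10 without doublet calls and 0.0013 with at least 10 cells per sum in monocyte-like cells, and -0.013 with DESeq2 and -0.22 with 12 clusters in the Cebpb/Dusp2 cluster. Casp8 gave -0.0037 without the filter and -0.0021 with 12 clusters in the Saa3/Ccl5 cluster, 0.019 with DESeq2 in dendritic cell-like cells and -0.096 with clustering on all genes in lymphoid-like cells.

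Leaving out each mouse in turn, the log2 fold changes that changed sign ranged from -0.11 to 0.47 for Fas, -0.21 to 0.12 for Tnfrsf1a and -0.38 to 1.56 for Ripk1 in monocyte-like cells, and from -0.11 to 0.33 for Tnfrsf1a in the Cebpb/Dusp2 cluster. In the Saa3/Ccl5 cluster they ranged from -0.50 to 0.37 for Fas, -0.044 to 0.39 for Ripk1 and -0.16 to 0.13 for Casp8, and in low-depth macrophage-like cells from -0.90 to 0.60 for Cflar and -0.27 to 0.39 for Casp8. In dendritic cell-like cells they ranged from -0.52 to 0.058 for Fas, -0.10 to 0.66 for Ripk1 and -0.26 to 0.11 for Casp8, and in lymphoid-like cells from -0.83 to 0.0037 for Fas, -0.45 to 1.36 for Fadd, -0.75 to 0.90 for Ripk1 and -0.22 to 0.30 for Casp8. The cause of these changes was not tested.

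Without thinning, the difference in the share of cells with a UMI, cKO minus control, was -1.47 percentage points for Tnfrsf1a and -0.588 for Ripk1, opposite to that at 1000 UMIs. In cells above 10% mitochondrial share, the difference in log2(CPM + 1) from kept cells was -1.28 for Tnfrsf1a, -1.27 for Tnfrsf1b and -0.091 for Ripk1, also of the other sign, and that of Tnfsf10 was 0.014 in log2(CPM + 10).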
